A study of Mus musculus with 4 samples.

Results

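The 9 genes described here write, erase or read DNA methylation: the DNA methyltransferase genes Dnmt1, Dnmt3a and Dnmt3b, their cofactor gene Uhrf1, the dioxygenase genes Tet1, Tet2 and Tet3, and the methyl-CpG-binding protein genes Mbd1 and Mbd2. They were chosen by name, and every probe set that the platform annotation assigned to one of them alone was taken, 23 of 24679 probe sets with a single gene symbol and 9 of 13320 genes. Total RNA came from 4 cerebellar tumors of mice, 1 Affymetrix Mouse Genome 430 2.0 array per tumor. All 4 carry the title Chd7-het, for the chromatin remodeller gene Chd7, with the numbers 1, 2, 4 and 5, on a mixed CD1xC57BL/6 background. The labels name no other allele, no treatment, no age and no promoter or Cre, and no control tissue or other genotype was analysed here, so each tumor was compared with the other 3. Nothing in the labels says whether the mice shared a litter.

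DNA methylation in mammals sits mostly on cytosines followed by guanine. At the replication fork the new strand is unmethylated; UHRF1 recognises such sites and brings in DNMT1, which copies the pattern, and DNMT3A and DNMT3B place new marks. TET enzymes oxidise 5-methylcytosine as a step towards its removal, and 5-hydroxymethylcytosine, their first product, is abundant in neurons, Purkinje cells included. MBD1 and MBD2 bind methylated CpG sites and recruit repressor complexes, in the case of MBD2 the NuRD complex.

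Values are log2 signals as deposited. A floor at 5.12 (34.8 on the linear scale) marks the level under which signals were not told from background, and a gene was tested where its brightest probe set averaged at least 5.87. Of the 9 members, 8 passed this filter, and Tet3 did not. A probe set's level depends on its own oligonucleotides, so levels of different probe sets and genes were not compared. The floor was exceeded by 59.1% to 61.3% of probe sets, depending on the tumor. On each of the 6 control probe sets for Gapdh and actin, tumors 1 and 2 read below tumors 4 and 5, for example 11.38, 11.33, 11.77 and 11.75 in tumors 1, 2, 4 and 5 for the middle Gapdh set. The 12 markers of the granule cell lineage, from whose progenitors such tumors can arise, were above the floor in every tumor. Their summed linear signal was 13054 in tumor 1 and 14018 to 14754 in the others. Past the filter, 5 of the 12 read higher and 7 lower in tumor 1 (median -0.23). The largest negative differences were those of Atoh1 at -0.83 and Sfrp1 at -0.61 (limma adjusted p = 0.103 and 0.184), and Pax6 and Cntn2 were called higher (1.26 and 1.12). Markers of other cells differed between tumors. Tumor 1 had a summed linear signal of 10508 over 12 mature neuron markers, against 4749 to 5218 in the others, of 3402 against 208 to 443 over 7 markers of Purkinje cells and inhibitory neurons, and of 6651 against 2458 to 3406 over 10 oligodendrocyte markers. The myelin genes Mag, Mog and Mobp lay above the floor in tumor 1 and below it in tumors 2, 4 and 5. Of the 7 oligodendrocyte markers past the filter, 4 read higher in tumor 1, of which Mbp, Ugt8a and Cldn11 were called. Cldn11 reached the filter only through tumor 1, and 6 were past it with that tumor left out. The other 3, the lineage factor genes Sox10, Olig2 and Olig1, were lowest in tumor 1 (-0.80, -0.66 and -0.37, none called). The 11 microglia and macrophage markers summed to 3799 in tumor 1 and to between 4601 and 6666 in the rest. In whole tissue, fewer cells of a type and less RNA per cell cannot be told apart.

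Of the 9 genes, 8 gave a signal above the floor in all 4 tumors on at least 1 probe set, and none of the 8 varied by 2-fold or more between the highest and the lowest tumor, as 5.15% of the 8498 tested genes did. Dnmt1 and Uhrf1 were lowest in tumor 1 on every probe set, and on the brightest set of each the other 3 tumors were nearly level. Tet1, Dnmt3b and Mbd2 shared another, highest in tumor 2. Dnmt3a, Tet2 and Mbd1 varied least or disagreed between their probe sets. The differences of each tumor from the other 3 were tested with limma over all 8498 genes, with a call at a Benjamini-Hochberg adjusted p under 0.05 and a difference of 2-fold or more. In tumor 1, 0 of 8 members were called, against a background of 1.29% of all genes, and in tumors 2, 4 and 5, 0 of 8 against 0%. At an unadjusted p under 0.05 there were 2 members in tumor 1 (11.2% of all genes), 1 in tumor 2 (5.84%), 0 in tumor 4 (0.553%) and 0 in tumor 5 (3.6%). In each such fit the lone tumor is assumed to vary like the other 3.

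**Figure D1:**
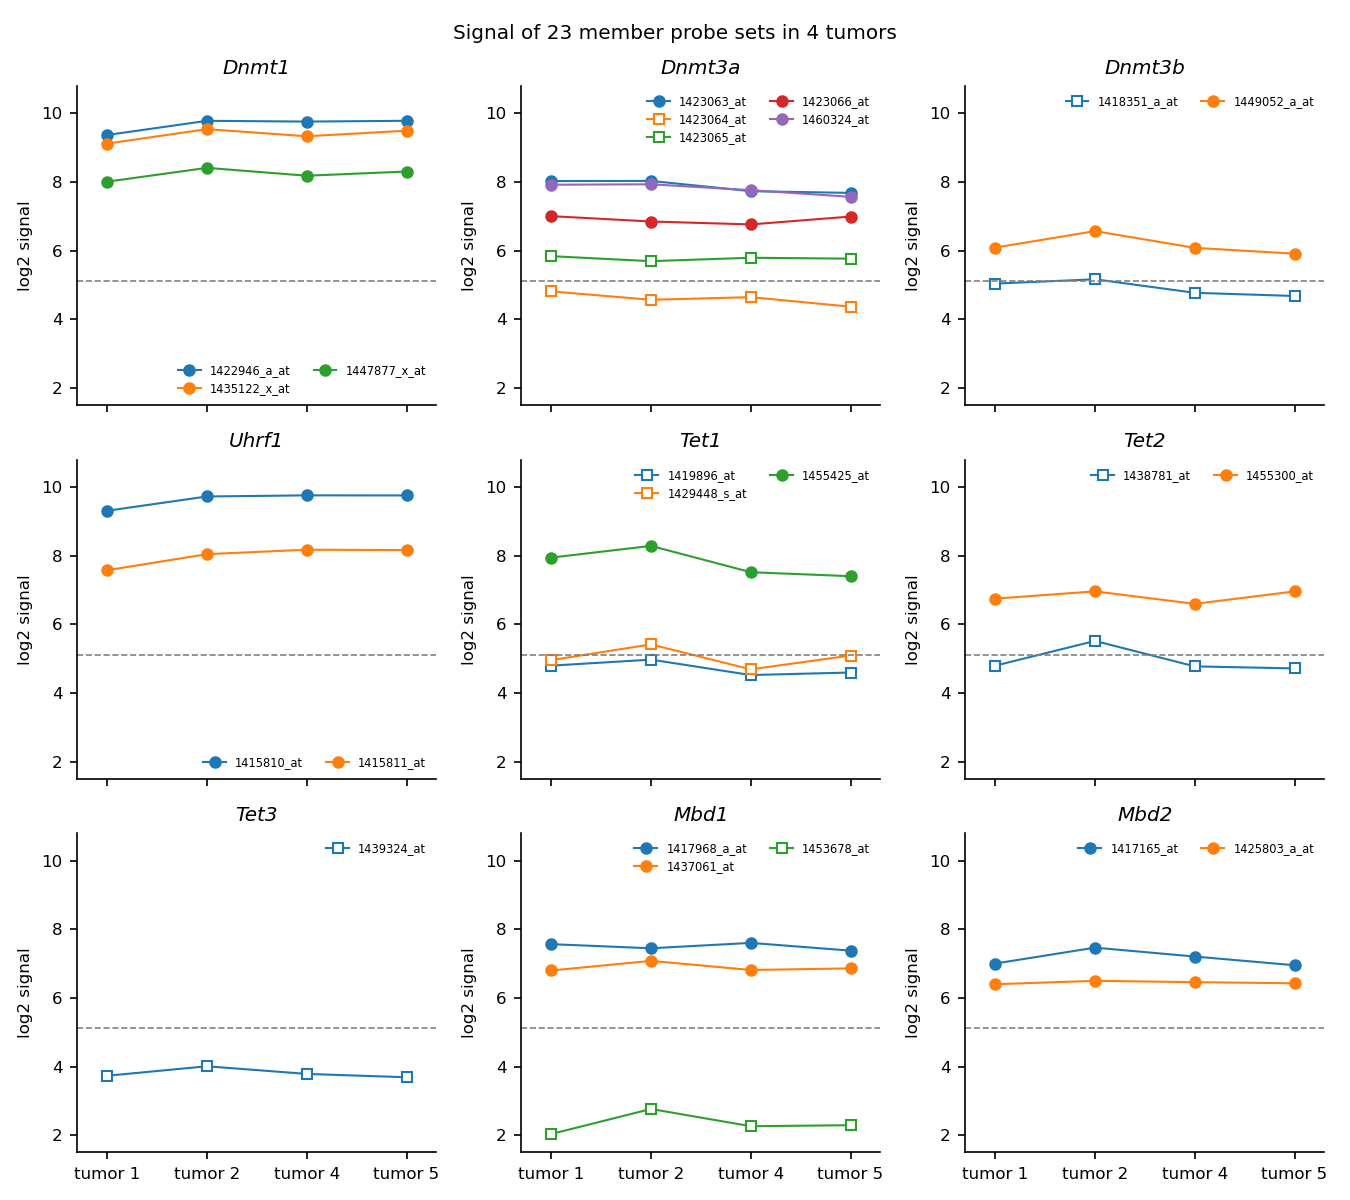
Log2 signal (vertical axis) of the 23 probe sets of the 9 genes in tumors 1, 2, 4 and 5 (horizontal axis), 1 panel per gene and 1 colour per probe set; filled circles are probe sets whose mean passed the filter of 5.87, open squares those that did not, and the dashed line is the floor of 5.12. Lines join values of 1 probe set and the tumors have no order. The Dnmt1 and Uhrf1 sets are lowest in tumor 1, the Tet1 sets highest in tumor 2, and Tet3 lies below the floor.

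Dnmt1, the maintenance methyltransferase gene, read 9.37, 9.79, 9.76 and 9.79 in tumors 1, 2, 4 and 5 on its brightest probe set, 1422946_a_at (mean 9.68 ± 0.20, SD, n = 4). Tumors 2, 4 and 5 lay within 0.023 of each other and tumor 1 stood below them. Its 2 other probe sets carry the suffix _x_at, which marks oligonucleotides that may also pair with other transcripts. They read 9.12, 9.54, 9.34 and 9.50 (1435122_x_at) and 8.01, 8.42, 8.19 and 8.31 (1447877_x_at), again with tumor 1 lowest, but with tumor 4 between tumor 1 and the other two, so the level pattern was not shared by these sets. Tumor 1 differed from the mean of the others by -0.41 on the log2 scale (SE 0.15, limma adjusted p = 0.328), or 1.32-fold. This missed the threshold, and 6.34% of all genes had a lower difference in that tumor.

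Uhrf1 encodes the protein that reads hemimethylated CpG sites and brings DNMT1 to them. Its brighter probe set, 1415810_at, read 9.31, 9.73, 9.76 and 9.76 (9.64 ± 0.22, SD, n = 4), and 1415811_at read 7.58, 8.04, 8.17 and 8.16 (7.99 ± 0.28). Tumor 1 was lowest on both sets, and on the brighter one the other 3 tumors spanned 0.033. The difference of tumor 1 from the rest was -0.44 (SE 0.15, limma adjusted p = 0.276), or 1.35-fold, with 5.28% of all genes lower. Without tumor 2 the adjusted p was 0.0461 at a difference of -0.45, under 2-fold, so no call was made. In all, tumor 1 was the lowest tumor on 5 of 5 probe sets of Dnmt1 and Uhrf1. These 2 genes were set together with their values known, so the count is a description and no test. Over all probe sets above the floor, tumor 1 was lowest on 30%. By gene, it was lowest for 2 of 8 members, against 31.3% of all genes.

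The same tumor was low in genes of DNA replication. Of 27 S phase genes past the filter, 27 read lower in tumor 1 than the mean of the others, with a median difference of -0.44 against -0.036 over all genes, and 0 were called. The 2 largest differences were those of Mcm2, a subunit of the replicative helicase, at -0.76 (limma adjusted p = 0.110), and Pole, the catalytic subunit of DNA polymerase epsilon, at -0.74 (0.130). Genes of G2 and M phase did likewise, with 19 of 19 lower, a median of -0.43 and 0 called.

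Each gene, on its brightest probe set alone, was then set to its own mean over the tumors, and the mean of the 27 S phase genes was taken. That mean stood at -0.34, 0.027, 0.12 and 0.19 in tumors 1, 2, 4 and 5. Dnmt1 differed from it by 0.033, 0.081, -0.037 and -0.078 in tumors 1, 2, 4 and 5, and Uhrf1 by 0.0099, 0.061, -0.0021 and -0.069. The root mean square distance was 0.062 for Dnmt1 and 0.046 for Uhrf1. S phase genes themselves lay between 0.019 and 0.22 from the mean of the rest of their list, with a median of 0.080, and the median over all 8498 genes was 0.23. Of all genes, 1.53% lay nearer to the S phase mean than Dnmt1 and 0.777% nearer than Uhrf1. These distances hold for 1422946_a_at of Dnmt1 and 1415810_at of Uhrf1, and those of their other sets were not taken. In tumor 4, 1435122_x_at and 1447877_x_at of Dnmt1 differed from the other tumors by -0.052 and -0.060, against 0.12 on 1422946_a_at. The other 6 members lay between 0.23 (Tet2) and 0.49 (Tet1) from it. Much of this likeness came from tumor 1: without it, 20.9% of all genes lay nearer than Dnmt1 and 13.8% nearer than Uhrf1. Neuron and myelin markers were higher in tumor 1, and Sox10, Olig1, Olig2 and 7 of 12 granule cell lineage markers lower, as given above. The part of these differences in the Dnmt1 and Uhrf1 signal was not tested.

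**Figure D2:**
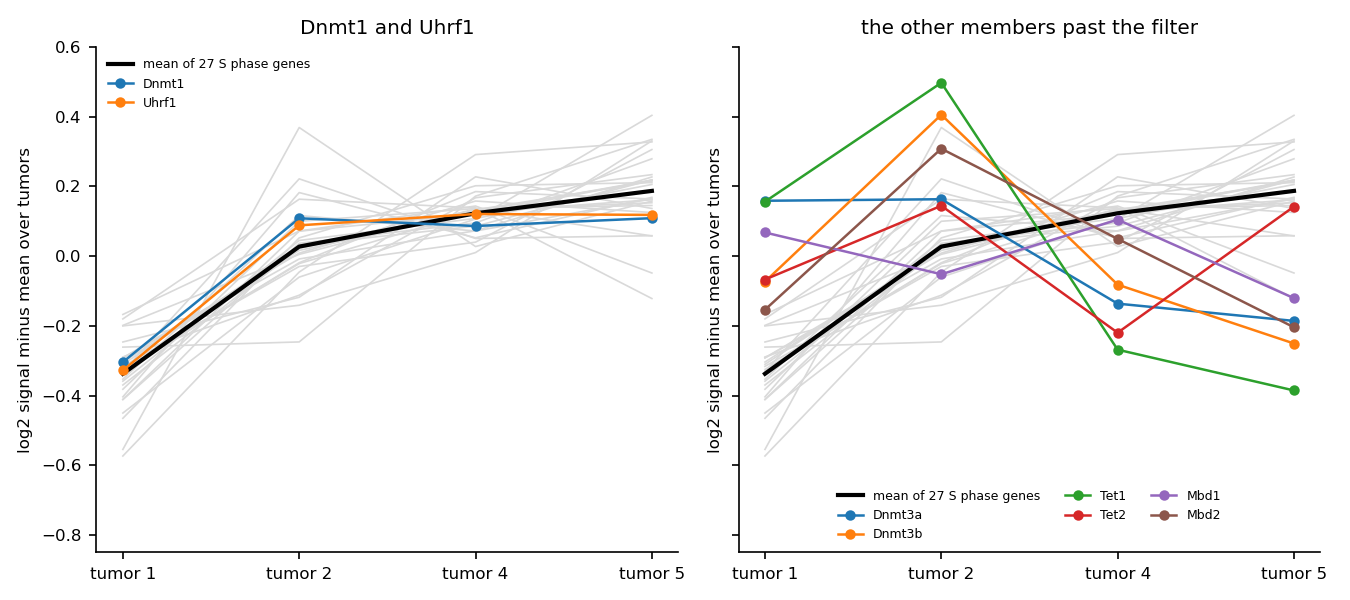
Log2 signal minus the gene's own mean over the tumors (vertical axis) in tumors 1, 2, 4 and 5; grey lines are the 27 S phase genes, the black line their mean, coloured points the members past the filter. Each gene is shown on its brightest probe set alone. On these sets Dnmt1 and Uhrf1 (left) stay within 0.081 of the black line in each tumor. Tet1, Dnmt3b and Mbd2 (right) have their highest value in tumor 2.

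E2F transcription factors drive many S phase genes from sites near their starts. To describe the sequence at the members' starts, the RefSeq windows of GRCm38.p6 from 250 bases before to 50 after each annotated start were searched on both strands for TTTCGCGC, TTTGGCGC, TTTCCCGC and TTTGCCGC, letters of the E2F consensus that do not overlap at the same position. Windows were at hand for 7 members. Dnmt1 and Uhrf1 held a match and Dnmt3a, Dnmt3b, Tet1, Tet2 and Tet3 held none. The 3 matches are shown because only these members' windows held any, in the sense of the gene with the match in capitals and its first base counted from the start base at 0:
Dnmt1, position -219, chr9:20952824-20952853, minus strand: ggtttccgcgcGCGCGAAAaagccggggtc
Dnmt1, position 33, chr9:20952574-20952603, minus strand: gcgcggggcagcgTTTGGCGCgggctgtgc
Uhrf1, position -185, chr17:56304117-56304146, plus strand: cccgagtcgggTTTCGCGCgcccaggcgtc
The first Dnmt1 match is TTTCGCGC on the opposite strand. One of the 3 Dnmt1 windows and one of the 2 Uhrf1 windows held these matches. Of all 32851 windows of this length, 2.26% held a match, as did 10 of 24 S phase genes with a window (41.7%) and 2.6% of all 27025 genes with one. These letters hold CpG and the matching windows are rich in it: of the 3837 windows with at least 30 CpG, 5.06% held a match. Dnmt3a, Dnmt3b and Tet2 also had such a window, without a match. A match is a run of letters and does not show that a factor binds there, and whether it bears on the profile of either gene was not tested.

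Dnmt3a, a de novo methyltransferase gene expressed in postmitotic neurons as well as in progenitors, read 8.03, 8.04, 7.74 and 7.69 in tumors 1, 2, 4 and 5 on 1423063_at (7.87 ± 0.19, SD, n = 4). A second probe set, 1460324_at, read 7.92, 7.94, 7.77 and 7.57. On both, tumors 1 and 2 were nearly equal and stood above tumors 4 and 5. The remaining set past the filter, 1423066_at, had another order, with 7.01, 6.85, 6.77 and 7.00. Of the 2 dim sets, 1423065_at spanned 0.15, from 5.70 to 5.84, and 1423064_at lay below the floor in every tumor. The largest difference on the brightest set was that of tumor 5, at -0.25 (SE 0.20, limma adjusted p = 0.957).

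Dnmt3b, the de novo enzyme gene of early embryos, was dimmer. Probe set 1449052_a_at read 6.09, 6.57, 6.09 and 5.92 (6.17 ± 0.28, SD, n = 4), highest in tumor 2 and near the filter in tumor 5. Probe set 1418351_a_at read 5.04, 5.17, 4.78 and 4.68, also highest in tumor 2, where alone it lay above the floor. Tumor 2 differed from the rest by 0.54 (SE 0.22, limma adjusted p = 0.795), or 1.45-fold, and 97.1% of all genes had a lower difference there. Without tumor 2 the range of Dnmt3b over the tumors was 0.18, against 0.66 with it.

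Among the erasers, Tet1 varied more than any other member past the filter. Its one probe set above the floor in every tumor, 1455425_at, read 7.94, 8.29, 7.52 and 7.40 (7.79 ± 0.41, SD, n = 4). Tumor 2 was highest, tumor 1 next, and tumors 4 and 5 were lowest. The range of 0.88, or 1.84-fold, was larger than that of 92.5% of all genes, for which the median was 0.38. Tumor 2 differed from the others by 0.66 (SE 0.24, limma adjusted p = 0.795), with 98.7% of all genes lower, and tumor 5 by -0.51 (SE 0.29, adjusted p = 0.957). Without tumor 1 the adjusted p of tumor 2 was 0.0270 at a difference of 0.82, still under 2-fold, so no call was made. The dim sets 1429448_s_at (4.96, 5.42, 4.69 and 5.09) and 1419896_at (4.80, 4.97, 4.52 and 4.60) were also highest in tumor 2 and lowest in tumor 4, but lay mostly or wholly below the floor. Tet1 on 1455425_at and Dnmt3a on its 2 brightest sets were higher in tumors 1 and 2 than in 4 and 5, whereas the Gapdh and actin controls were lower there, and the part of this array difference in the result was not tested. After quantile normalization the Tet1 set read 7.93, 8.27, 7.56 and 7.42, in the same order.

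The 3 genes below had the profile over the 4 tumors most like that of Tet1 among 8463 genes above the floor throughout. Lcorl read 7.45, 7.78, 7.00 and 6.87, at a root mean square distance of 0.015 after centring. Grin3a, a subunit gene of NMDA-type glutamate receptors, read 6.14, 6.51, 5.72 and 5.67 (distance 0.029), and Atxn3, the deubiquitinase gene ataxin 3, 6.39, 6.81, 6.00 and 5.92 (distance 0.030). The distances rest on 1 array per tumor and are a description.

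Tet2 read 6.75, 6.96, 6.60 and 6.96 in tumors 1, 2, 4 and 5 on 1455300_at (6.82 ± 0.18, SD, n = 4). Tumors 2 and 5 were the highest and nearly equal, and tumor 4 was lowest at -0.29 from the others (SE 0.24, limma adjusted p = 1.00). The dimmer 1438781_at read 4.80, 5.52, 4.78 and 4.72, above the floor in tumor 2 alone, and did not share the high value of tumor 5. Tet3, the TET gene known from neurons and the oocyte, had a single probe set, 1439324_at, which read 3.73, 4.01, 3.79 and 3.69. It was below the floor in every tumor, so its differences were not tested, and a low reading of 1 probe set does not show that the transcript was absent.

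The reader Mbd1 varied little. Probe set 1417968_a_at read 7.57, 7.45, 7.60 and 7.38 (7.50 ± 0.10, SD, n = 4), a range of 0.23 that was larger than that of 18.5% of all genes. Probe set 1437061_at read 6.80, 7.08, 6.81 and 6.86, with tumor 2 highest, whereas on the first set tumor 2 was among the lower ones. The last, 1453678_at, lay far below the floor. The largest difference of the brightest set was that of tumor 5, at -0.16 (SE 0.19, limma adjusted p = 0.957).

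Mbd2 read 7.00, 7.46, 7.21 and 6.95 on 1417165_at (7.16 ± 0.23, SD, n = 4) and 6.40, 6.50, 6.46 and 6.43 on 1425803_a_at (6.45 ± 0.043). Both sets were highest in tumor 2 and next in tumor 4, but the first spanned 0.51 and the second 0.099. On the first, tumor 2 differed from the others by 0.41 (SE 0.19, limma adjusted p = 0.795), or 1.33-fold. With both probe sets averaged the difference was 0.24, and without tumor 2 the range of the first set was 0.25.

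**Figure D3:**
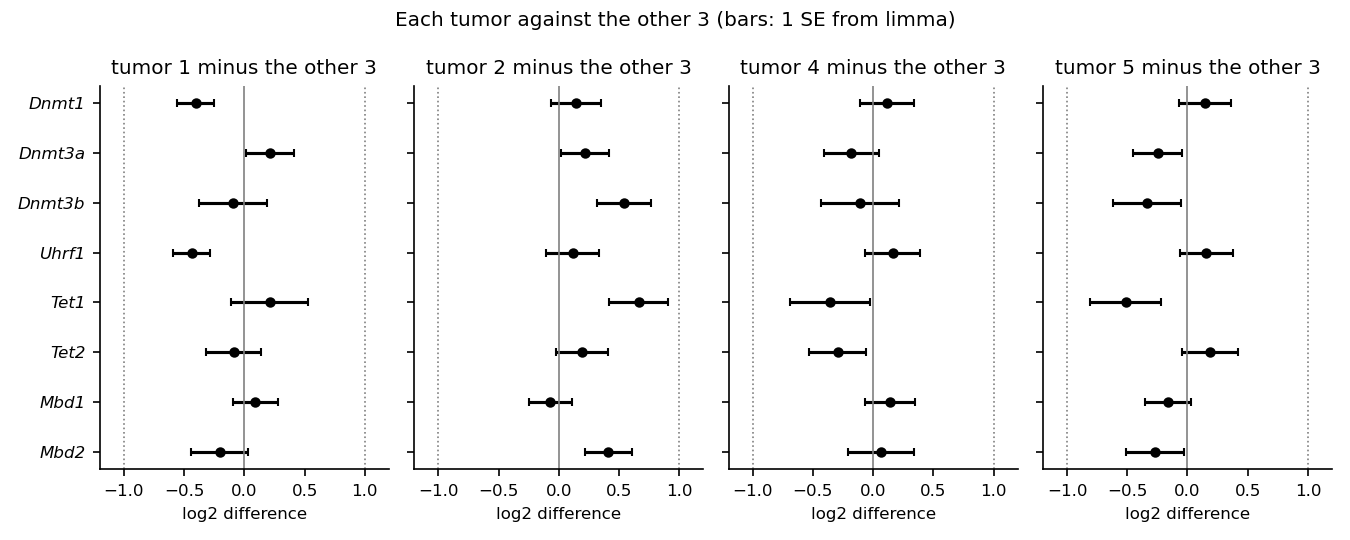
Log2 difference of each tumor from the mean of the other 3 (horizontal axis) for the 8 members past the filter (vertical axis), 1 panel per tumor; points are limma estimates, bars 1 SE, dotted lines a 2-fold difference. All points lie inside the dotted lines; the lowest in tumor 1 are Uhrf1 (-0.44) and Dnmt1 (-0.41), the highest in tumor 2 Tet1 (0.66) and Dnmt3b (0.54).

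Over the 16 member probe sets that lay above the floor in all tumors, tumor 2 was the highest on 10, against 28.6% of all such probe sets, and tumor 1 the lowest on 7, against 30%. Tumors 1, 4 and 5 were highest on 2 (24%), 3 (18%) and 1 (29.2%), and tumors 2, 4 and 5 lowest on 1 (26.4%), 2 (19.3%) and 6 (23.9%). By gene, tumor 2 was highest for 5 of 8 members (26.4% of all genes), tumor 1 for 0 (23.4%), tumor 4 for 2 (19.1%) and tumor 5 for 1 (30.9%). Of the 5 in tumor 2, Dnmt3a was nearly level with tumor 1 (8.036 against 8.031) and Tet2 with tumor 5 (6.961 against 6.959). Tumor 5 was lowest for 5 of 8 (22.1%), tumor 1 for 2 (31.3%), tumor 2 for 0 (29.1%) and tumor 4 for 1 (17.3%). The probe sets of a gene are not independent, so these are counts and no test. The median difference of the 8 members was -0.094, 0.21, -0.021 and -0.20 in tumors 1, 2, 4 and 5, against -0.036, -0.017, 0.0037 and 0.038 over all genes. Without tumor 1 it was 0.25, -0.074 and -0.17 in tumors 2, 4 and 5. In tumor 2, 19 of 19 genes of G2 and M phase also read higher (median 0.31, 0 called), led by the kinetochore genes Cenpf at 0.77 and Cenpe at 0.70 (limma adjusted p = 0.795 for both); without tumor 1, 14 of 19 were higher (median 0.15). S phase genes were 17 higher and 10 lower (median 0.030), but 5 higher and 22 lower without tumor 1 (median -0.13). The mature neuron markers had their lowest sum in tumor 2 (4749), near those of tumors 4 (5218) and 5 (5171). Syt1, Chn2, Gabra6, Grin2c, Cbln3 and Nefl were below the floor there. Of these, only Syt1 was so in tumor 2 alone. Grin2c was below it in every tumor, Chn2, Gabra6 and Cbln3 also in tumor 5, and Nefl also in tumor 4. The part of cell makeup in the tumor 2 values was not tested.

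**Figure D4:**
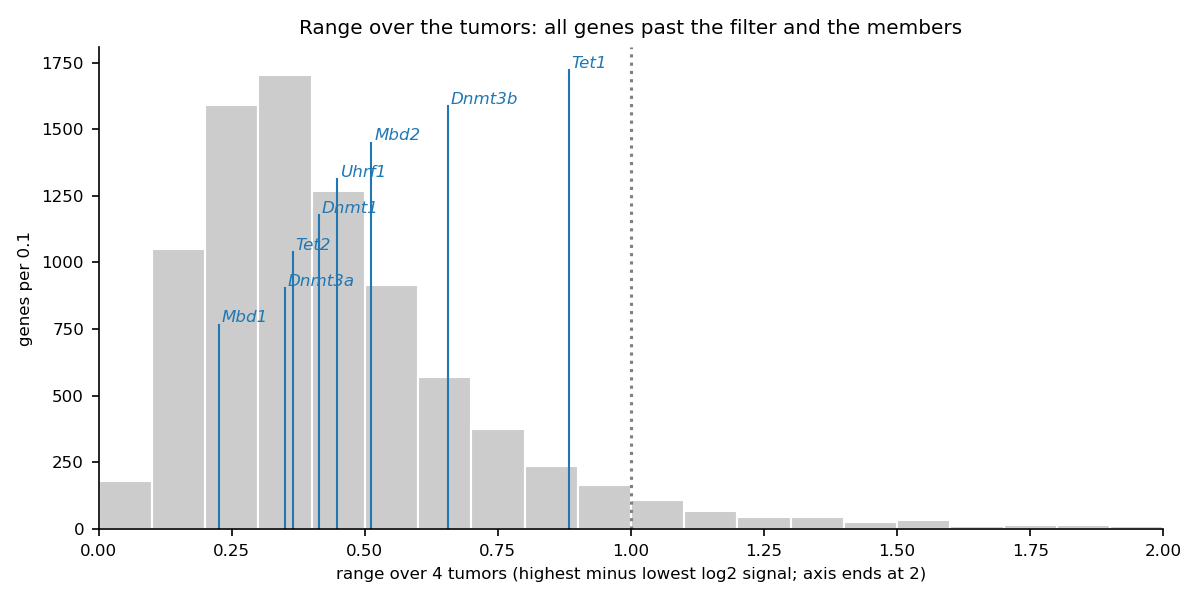
Number of genes (vertical axis) by range over the 4 tumors, the highest minus the lowest log2 signal (horizontal axis, bins of 0.1, ending at 2), for the 8498 genes past the filter, with the 8 members as labelled blue lines whose height has no meaning; the dotted line marks 2-fold. Mbd1 has the smallest range of the members (0.23) and Tet1 the largest (0.88), none past the dotted line.

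Other genes of the machinery were read from a list of 30, of which 24 were on the array under a single symbol and 20 past the filter. None was called in any tumor. In tumor 1, 7 were higher and 13 lower (median -0.10), in tumor 2, 10 and 10 (0.034), in tumor 4, 10 and 10 (0.014) and in tumor 5, 14 and 6 (0.13). Without tumor 1 the medians in tumors 2, 4 and 5 were -0.044, -0.032 and 0.046, so the sign turned in tumors 2 and 4. The 4 with the largest range were Gadd45a, Gadd45g, Zbtb4 and Pcna. Gadd45a, a stress-response gene also linked to demethylation, read 7.00, 6.22, 7.13 and 7.13, low in tumor 2 (-0.86, SE 0.19, limma adjusted p = 0.795). Gadd45g, of the same family, read 6.33, 6.96, 7.01 and 7.16, low in tumor 1 (-0.72, SE 0.20, adjusted p = 0.169). Zbtb4, a zinc finger protein that binds methylated CpG, read 6.80, 6.28, 5.98 and 6.05, highest in tumor 1 (0.70, SE 0.22, adjusted p = 0.239).

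Pcna, the sliding clamp of replication that also binds DNMT1, read 11.11, 11.31, 11.67 and 11.73, lowest in tumor 1 (-0.46, SE 0.24, limma adjusted p = 0.557). Hells, a chromatin remodeller required for normal DNA methylation, was singled out after its values were seen. Its readings of 8.65, 9.05, 9.02 and 9.08 had the pattern of the brightest sets of Dnmt1 and Uhrf1 (-0.40 in tumor 1, SE 0.15, not called). Uhrf2, the paralogue of Uhrf1, read 7.91, 7.83, 7.71 and 8.15 and was not low in tumor 1 (0.013, SE 0.21, limma adjusted p = 0.993). It too was chosen after its values were seen.

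Of 15 genes of methyl donor and cofactor supply, 11 were on the array and 10 past the filter, with 0 called in any tumor. In tumor 1, 3 were higher and 7 lower, with a median of -0.21. The 4 with the largest range were each lowest in tumor 1. Idh2, a mitochondrial source of the TET cosubstrate 2-oxoglutarate, read 8.59, 9.28, 9.30 and 9.09 (-0.63 in tumor 1, limma adjusted p = 0.122). Of the one-carbon enzymes, Shmt1 read 7.62, 8.23, 8.12 and 8.07 (-0.52, 0.247), Shmt2 8.92, 9.27, 9.39 and 9.45 (-0.45, 0.275) and Mthfd1 8.21, 8.35, 8.65 and 8.78 (-0.38, 0.545).

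**Figure D5:**
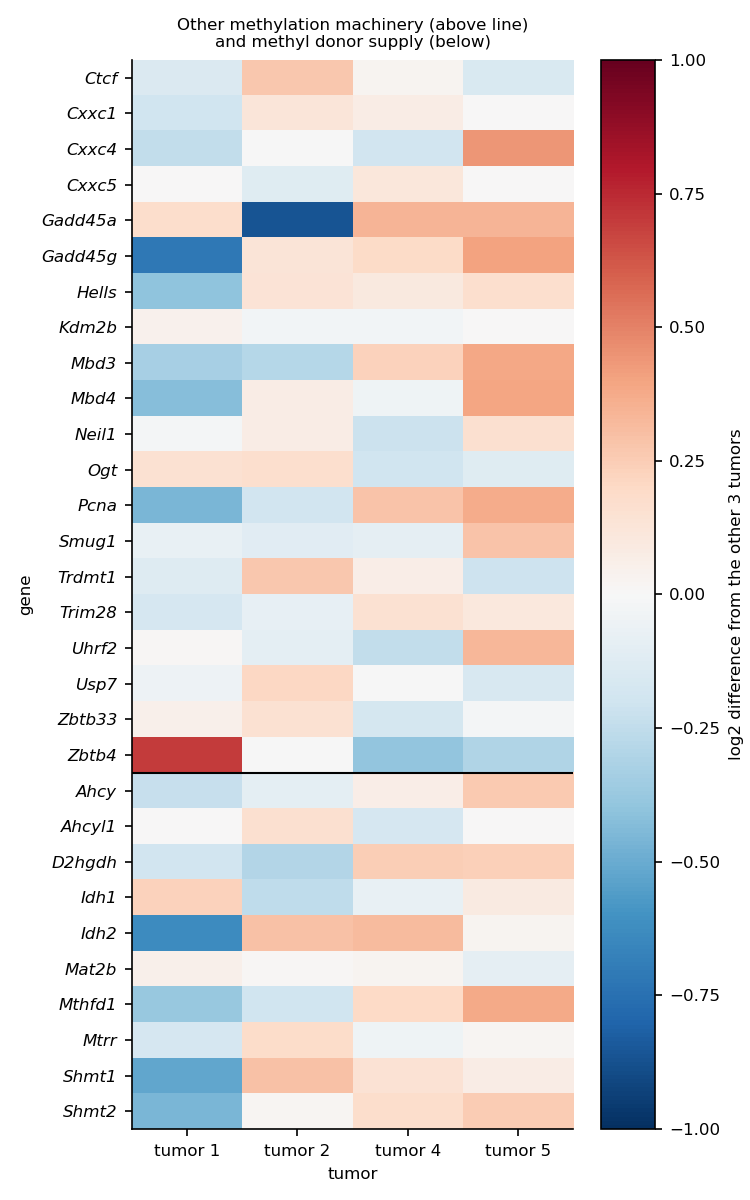
Log2 difference of each tumor (columns) from the other 3 for 20 other genes of the methylation machinery (rows above the line) and 10 of methyl donor and cofactor supply (below it); red is higher, blue lower, with the scale ending at 2-fold. The darkest cells are Gadd45a in tumor 2 (-0.86), Gadd45g (-0.72) and Zbtb4 (0.70) in tumor 1 and Idh2 in tumor 1 (-0.63), none of which was called.

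Of 13 corepressor genes that work with MBD proteins, 12 were past the filter and 0 were called in any tumor. In tumor 2, where Mbd2 was highest, 7 were higher and 5 lower (median 0.034), but 5 higher and 7 lower without tumor 1 (median -0.018). The largest differences there were those of Mta1, a NuRD subunit gene, which read 8.54, 9.34, 8.83 and 8.80 (0.62, SE 0.17, limma adjusted p = 0.795), and Atf7ip, the MBD1 partner gene, which read 8.50, 8.78, 8.16 and 8.43 (0.42, SE 0.19, adjusted p = 0.795). In tumor 1, 10 of 12 were lower, with a median of -0.22.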

How the data were processed

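The authors deposited log2 signals of 29304 probe sets on 4 arrays. The submitters' processing notes name MAS5, which summarizes and scales each array on its own; no source read for this work gives its version or scaling target. No depth applies, and the number of arrays limits precision. The table has no detection calls, so low signals were raised to a floor, the median over arrays of the 40th percentile, with control probe sets left out. Genes were named by the platform annotation, and 1 probe set (the brightest on average, if its mean reached the median over probe sets) stood for each. Each tumor was compared with the mean of the rest by limma 3.58.1 (lmFit, and eBayes with an intensity trend) in R 4.3.3. The fit was tried on simulated data whose changes were larger than any member difference here. That trial does not bear on differences of the members' size. The lone tumor adds nothing to the spread in its own fit. The p-values rest on the spread among the other 3 tumors, moderated by limma over all genes. Floor, filter, normalization, probe set choice, trend and each tumor were varied. The members, lists and rule for named genes (all members; 4 of the largest range per machinery list; 2 of the largest difference per other list; 3 profiles nearest the most variable member) were chosen with earlier results of these data known. Further genes of the marker and imprinted lists are named outside that rule, with their values known.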

Additional observations from a re-analysis of the deposited data

Results flagged for a closer look

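In each of the 23 member probe sets, the gap between the most extreme tumor and its nearest neighbour was set against the range of the 4 tumors. A gap above Dixon's critical value was looked for, which chance exceeds in about 1 in 20 groups. It was seen on 3 probe sets. The share of all probe sets on the array with such a gap was not counted, so these 3 have no background beside them. On 1422946_a_at of Dnmt1 the gap of tumor 1, the lowest, was 0.945 of the range, and on 1415810_at of Uhrf1 that of tumor 1, again the lowest, was 0.927. The other sets of these genes stayed under the critical value. Their ratios were 0.507 (1435122_x_at) and 0.430 (1447877_x_at) for Dnmt1 and 0.781 (1415811_at) for Uhrf1. On 1438781_at of Tet2 the gap of tumor 2, the highest at 5.52, was 0.900 of the range, but the other 3 tumors lay below the floor of 5.12, so this ratio rests on readings not told from background and is no sign of a difference in Tet2. After quantile normalization, chosen after seeing the data, the ratio was 0.916 for the Uhrf1 set, still past the critical value, and 0.788 for the Dnmt1 set and 0.816 for the Tet2 set, both under it.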

How the results depend on the processing

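No member was called in any tumor, and none had a range of 2-fold or more, under any alternative run. The 10 differences tried, over the 8 members past the filter, kept their sign in 105 of 105 alternative fits. Much of that count was fixed in advance. Changes of floor, filter, trend and probe set suffix left every one of these differences unchanged. Only normalization, averaging of probe sets and leaving out a tumor could move them. For Dnmt1 in tumor 1 they lay between -0.41 and -0.34 (adjusted p 0.0650 to 0.923), for Uhrf1 in tumor 1 between -0.49 and -0.41 (0.0461 to 0.872) and for Tet1 in tumor 2 between 0.55 and 0.82 (0.0270 to 1.00). The count of member probe sets highest in tumor 2 was 10 with quantile normalization, against 27.9% of all such probe sets. It was 14 with the lower floor, which admits more sets, against 29.0%. Both settings were chosen after seeing the data. With quantile normalization 1455300_at of Tet2 and 1425803_a_at of Mbd2 left the count, and 1422946_a_at of Dnmt1 and 1415810_at of Uhrf1 entered it. Over all genes, 110 were called in tumor 1, but 29 with the filter at the 75th percentile, 57 with the floor at the 50th and 177 to 208 without one other tumor. In tumor 2, 1 was called with the stricter filter, 1 with none, and 0 to 29 with a tumor left out. In tumors 4 and 5, 5 and 6 were called without a filter, and 1 to 7 and 1 to 47 with a tumor left out; the highest of these counts came without tumor 1. The cause was not tested. Signal near background limits Tet3, Dnmt3b and the dim sets of Tet1 and Tet2. No paired analysis was possible because all samples form 1 group.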

Other observations

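Some genes are known to be kept silent, or silent on one parental copy, by DNA methylation. Of 15 germline genes of the first kind, 5 were on the array. Ddx4, Sycp1, Sycp3 and Asz1 lay below the floor in every tumor, between 0 and 3.45. Tex101, a germ cell surface protein gene, read 2.00, 6.75, 0.58 and 2.29 in tumors 1, 2, 4 and 5, on 1 probe set, and did not reach the filter.

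Of 15 imprinted genes, 10 were on the array and 7 past the filter. Ndn, a neuronal growth suppressor gene, was higher in tumor 1 by 2.15 (SE 0.19, limma adjusted p = 0.00264), with 9.84, 7.84, 7.76 and 7.49 in tumors 1, 2, 4 and 5. Plagl1, a zinc finger growth regulator gene, read 8.73, 8.54, 7.26 and 6.89 and was not called with all tumors in the fit. With tumor 1 left out, the calls on this list changed. Its median difference was then 0.21 in tumor 2, 0.076 in tumor 4 and -0.31 in tumor 5. Grb10, an adaptor of insulin receptor signalling, read 7.88, 5.60, 4.10 and 4.39, and the noncoding RNA gene Meg3 6.31, 5.18, 4.67 and 4.43, both under the filter. In tumor 1, 6 of the 7 past the filter read higher and 1 lower (median 0.38), and Ndn was the one called. Igf2 (8.29) and Cdkn1c (6.54) were also highest in tumor 1. Mest was highest in tumor 4 (8.15), Sgce in tumor 5 (8.43) and Peg3 in tumor 2 (9.48). Of the mature neuron markers, 7 of 7 past the filter also read higher in tumor 1 (median 1.63). The filter used the mean over all tumors, and Syt1 and Chn2 reached it only through tumor 1. With tumor 1 left out, 5 were past the filter, so the 7 of 7 was partly set by the filter. The part of cell makeup in the Ndn value was not tested, and allele-specific expression was not measured.

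The 12 start windows of the 7 members differed in CpG, the target of the enzymes they encode. The single windows held 57 CpG in Tet2, 30 in Dnmt3b, 22 in Tet3 and 17 in Tet1, where 68.6% of all windows held fewer. Dnmt3a had windows with 46, 47 and 18, Uhrf1 with 12 and 33, and Dnmt1 with 2, 12 and 33. The median over 32851 windows of 300 bases was 7, so 1 window of Dnmt1 lay below it.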
